A study of Homo sapiens with 6 samples.

Results

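Peaks of N6-methyladenosine (m6A) that touch both the 5′ untranslated region (5′ UTR) and the coding sequence of a transcript, and no other transcript part, were compared across 3 deposited peak lists from U2OS cells. A peak was taken when its annotation in the authors' list named exactly the 5′ UTR and the coding sequence. These start-codon-side peaks numbered 3642 of the 41729 peaks in the 3 lists. There were 1075 of 15272 with the control siRNA, 1425 of 13147 with DF2 siRNA 1 and 1142 of 13310 with DF2 siRNA 2. The choice used the authors' annotation alone and no enrichment value.

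U2OS is an established human osteosarcoma line, and all 3 conditions were wild-type U2OS cells. One received a control siRNA, another the siRNA labelled DF2 siRNA #1 and the third the siRNA labelled DF2 siRNA #2, DF2 being short for YTHDF2. Cytoplasmic RNA was cut to about 100 nt and pulled down with an anti-m6A antibody, and each condition has 1 input and 1 immunoprecipitated library. The lists are marked as merged over a first and a second replicate, but only 1 list per condition was used here, so no difference between conditions has a replicate check. Every interval below is a 95% exact binomial (Clopper-Pearson) interval that covers counting error only, and no p-value is given. The control list serves in both comparisons with an siRNA list. A peak missing from a list means only that none passed the authors' threshold there. In pulled-down RNA from bulk cells, fewer cells with a modified transcript and less modification per transcript cannot be told apart.

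m6A is written on nascent transcripts by the METTL3–METTL14 complex, mostly near stop codons and in long exons, and YTHDF2 is a cytoplasmic reader protein that binds m6A and promotes the decay of the transcript. Methylation near the 5′ end has been studied for its part in cap-independent translation under heat shock, where the YTHDF2 protein was reported to protect 5′ UTR sites from the demethylase FTO. Antibodies against m6A also bind m6Am, a methylated adenosine next to the cap in transcripts that begin with A, so a peak over a transcript start can hold either mark.

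The starts of 10 genes are shown because peaks of this class cover them in 1 or more lists. They are the first 20 bases from the RefSeq start (GRCh38.p14, the hg38 assembly of the lists), in the direction of transcription, with the first transcribed base in capitals. These windows were chosen after the peaks were seen. The covered starts of PDXK (first base G), MRPS33 (C), GANAB (A) and DTD1 (A), also among the named genes, are not shown. The 10 starts therefore do not give the share that begins with A, which is given below.
HIF1A, chr14:61695513-61695532, plus strand: Agtgcacagtgctgcctcgt
HSPB8, chr12:119178931-119178950, plus strand: Agaagaagtttctaggcgcg
LOX, chr5:122078240-122078259, minus strand: Agacactgcccgctctccgg
PFN1, chr17:4948511-4948530, minus strand: Acagcgagcggagccgcggt
TXNDC5, chr6:7910769-7910788, minus strand: Agccccgccgcgatgcccgc
CACUL1, chr10:118754951-118754970, minus strand: Agagccccggagcgcccacc
TASOR, chr3:56683218-56683237, minus strand: Agaagaactgcccgagggag
ATRAID, chr2:27212041-27212060, plus strand: Gagtttctgcgaagccgcga
PCBP1, chr2:70087477-70087496, plus strand: Agaccgccgaggctgccgcc
HNRNPA0, chr5:137754344-137754363, minus strand: Ctctttgtgtggtgcccaga

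The core of the m6A consensus was searched as the motif GGACT, with GGACA as a first variant and the variant GGACC as the other, on the sense strand of the first 50 transcribed bases. The genes searched were the markers and the 12 highest regions of this class in all 3 lists, in both siRNA lists without a control peak, and in control alone. Other genes described below were not searched one by one. Of the 35116 RefSeq starts, 14.5% held a match. Among the genes searched, 6 held it. They are shown with up to 10 bases on each side and the motif in capitals.
HIF1A, chr14:61695529-61695553, plus strand: tcgtctgaggGGACAggaggatcac
LOX, chr5:122078226-122078250, minus strand: ccgctctccgGGACTgccgcgccgc
YBX1, chr1:42682445-42682467, plus strand: agcggagagcGGACCccagagag
FBXW2, chr9:120793367-120793391, minus strand: gtgaggctgcGGACCgggagcagcg
TASOR, chr3:56683191-56683215, minus strand: gcggctccgaGGACCgggcagcgca
GON4L, chr1:155859382-155859398, minus strand: ctcccggaggGGACTcc

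Peaks joining 5′ UTR and coding sequence made up 7.04% of the control list (6.64% to 7.46%), 10.8% of the siRNA 1 list (10.3% to 11.4%) and 8.58% of the siRNA 2 list (8.11% to 9.07%). The 3 intervals do not overlap. The genes that carried such a peak numbered 1049 in control, 1395 with siRNA 1 and 1107 with siRNA 2, which is 10.99%, 16.7% and 12.9% of the genes with any peak in the same list. By comparison, peaks of 5′ UTR alone made up 6.89%, 7.58% and 7.57% of the lists, and peaks of coding sequence alone 7.45%, 10.9% and 9.16%. Coding-only peaks therefore showed the same order of the lists as the joined peaks.

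The lists differed in how wide their peaks were, and the joined class was commoner among narrow peaks. Among peaks that cover at most 200 bases, 9.05% joined the 5′ UTR and coding sequence in control, 17.9% with siRNA 1 and 11.9% with siRNA 2. Among peaks over 200 and up to 400 bases the shares were 8.64%, 13.1% and 10.5%. The shares were 6.89%, 8.28% and 7.31% over 400 and up to 600 bases, and 6.04%, 8.39% and 8.27% over 600 and up to 800 bases. They were 7.01%, 8.10% and 7.76% over 800 and up to 1200 bases, and 4.23%, 6.68% and 5.36% above 1200 bases. When each list's shares were weighted to the widths of the control list, the totals were 7.04%, 10.4% and 8.50%. In percentage points the gap between siRNA 1 and control was largest in peaks of at most 200 bases. Control had the lowest share in each of the 6 width classes. Among peaks of exactly 600 bases, 9.13% of siRNA 1 peaks and 8.13% of control peaks joined the 5′ UTR and coding sequence. The siRNA 2 share at that width stayed within the interval of its whole list, 8.11% to 9.07%, which holds the control share of 8.13%.

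**Figure D1:**
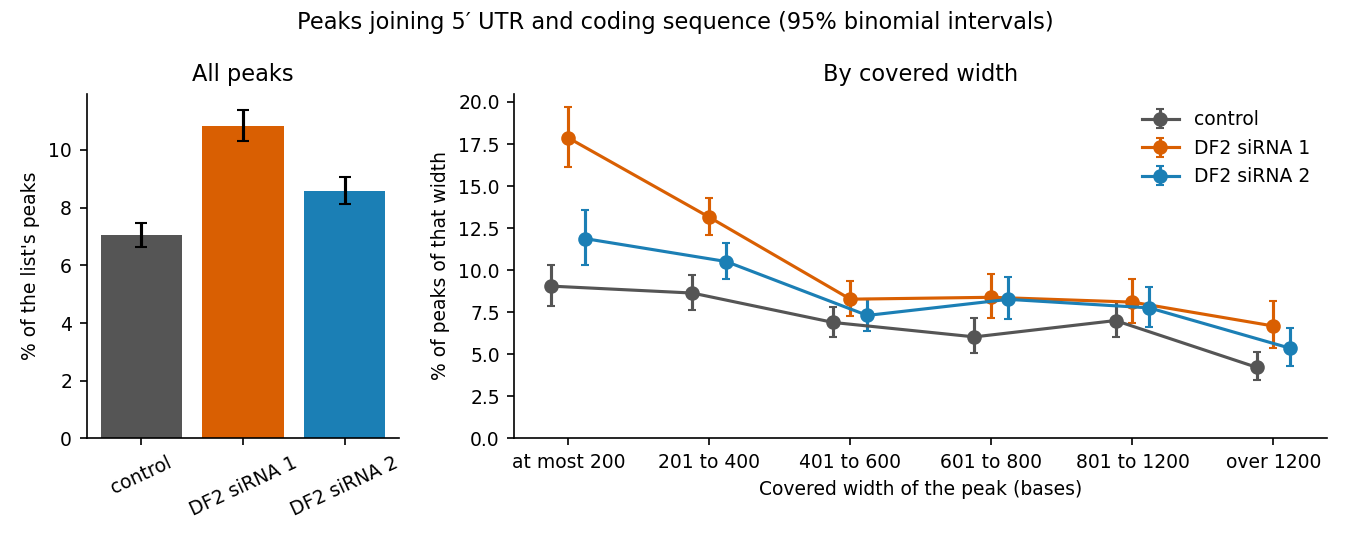
Left, the percent of each list's peaks that join 5′ UTR and coding sequence, as bars with 95% binomial intervals; right, the same percent among peaks of each covered width in bases. Control stands at 7.04%, siRNA 1 at 10.8% and siRNA 2 at 8.58%, and the siRNA 1 share falls from 17.9% in peaks of at most 200 bases to 6.68% above 1200 bases.

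Within each list the joined peaks were of middling strength. The score is the authors' own value per peak, of unstated definition, and it was ranked only within its list. The median percentile of joined peaks was 54.1, 49.6 and 53.4 in control, siRNA 1 and siRNA 2, against 24.5, 26.2 and 27.9 for peaks of 5′ UTR alone and 57.7, 48.0 and 53.7 for peaks of coding sequence alone. The authors' fold enrichment over input of joined peaks had a median of 17.2 in control (quartiles 11.2 and 30.9). The median was 14.1 with siRNA 1 (8.94 and 25.4) and 17.9 with siRNA 2 (12.1 and 31.5). Over all peaks the medians were 19.1, 14.9 and 18.7. A false discovery rate (FDR) under 0.01 was reached by 79.1% of joined peaks in control, 81.5% with siRNA 1 and 81.5% with siRNA 2. Thus their strength lay close to that of coding peaks and above that of peaks confined to the 5′ UTR.

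Joined peaks covered a median of 600 bases in control, 400 under siRNA 1 and 600 under siRNA 2. A single unbroken block made up 34.5%, 41.4% and 37.8% of them in the same order, so most crossed at least 1 intron. The genomic span from the first to the last base had a median of 1799 bases in the control list, 1027 under siRNA 1 and 1448.5 under siRNA 2. Over all peaks the median covered width was 600 bases in each list, and the median span 1000, 800 and 942 bases. Single blocks made up 54.7%, 59.4% and 57.8% of all peaks. Spans and single-block shares of joined peaks thus had the same order of the lists as those of all peaks. The joined control peak with the most blocks lay in PPP2R5A, a regulatory subunit of protein phosphatase 2A. There 8 blocks covered 800 bases between 212302051 and 212342236 on chromosome 1 at percentile 67.9. EHBP1, KLHL23 and PDE4B followed with 7 blocks each, and EPB41 was among those with 6. PDE4B, which encodes a cAMP phosphodiesterase, had its 7 blocks spread from 65918700 to 66247500 on chromosome 1. Where blocks lie on distant exons, the list does not show which exon holds the modified base.

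Many joined peaks began at the annotated start of their gene. Of those whose gene matched the RefSeq promoter table (870 control, 1156 siRNA 1 and 936 siRNA 2 peaks), the peak covered the start nearest to its 5′ end in 42.1% (38.8% to 45.4%), 48.6% (45.7% to 51.5%) and 44.4% (41.2% to 47.7%). For coding-only peaks these shares were 0.223%, 1.23% and 0.815%, and for 5′ UTR-only peaks 49.7%, 56.0% and 50.6%. The coding-only shares are low by the definition of that class. For peaks from the 5′ UTR to the stop codon or 3′ UTR the shares were 29.7%, 37.1% and 33.3%. The peak's 5′ end lay within 100 bases of the start in 39.3% of control, 50.1% of siRNA 1 and 45.9% of siRNA 2 joined peaks. It lay more than 1 kb downstream in 18.5%, 14.4% and 16.7%, counted along the genome with introns included. The annotated start may not be the start used in U2OS cells.

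**Figure D2:**
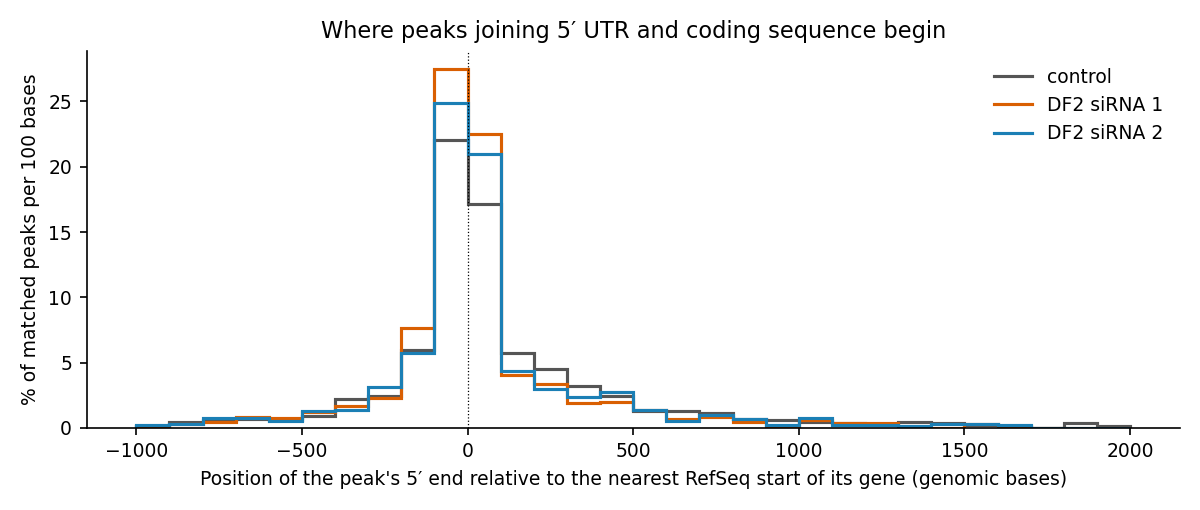
Percent of joined peaks with a matched gene per 100 bases (vertical axis), by the position of the peak's 5′ end relative to the nearest RefSeq start of its gene in genomic bases (horizontal axis, 0 is the start). In control 22.1% began in the 100 bases before the start and 17.1% in the 100 bases after it, and the siRNA 1 line is the highest of the 3 in both.

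The sequence at these starts was compared with that of other genes, as a description. A gene whose joined peak was matched began with A in 52.9% of cases in control (49.5% to 56.3%), 51.9% with siRNA 1 (48.9% to 54.8%) and 52.1% with siRNA 2 (48.8% to 55.4%). Where the peak covered the start, the shares were 56.2%, 54.2% and 55.4%. For genes with a coding-only peak they were 45.3%, 45.2% and 45.7%, and 44.4% of the 35116 starts listed by RefSeq began with A. Protein-coding genes with a peak in any list, taken with 1 start each, began with A in 46.4% of cases. Among all protein-coding genes, with 1 start each, 50.7% did so (49.96% to 51.5%). For genes with a 5′ UTR-only peak the shares were 50.5%, 52.5% and 50.7%. Where that peak covered the start, they were 54.2%, 56.5% and 55.0%. Genes with a peak from the 5′ UTR to the stop codon or 3′ UTR began with A in 47.4%, 49.3% and 48.3%. With the start covered by such a peak, the shares were 51.4%, 54.0% and 55.2%. The shares for joined peaks thus lay close to those for 5′ UTR-only peaks. The shares for joined peaks lay above those for coding-only peaks in each list, with coding-only intervals of 41.5% to 49.1%, 41.9% to 48.6% and 42.2% to 49.3%. These intervals overlap those of the joined peaks with siRNA 2 and not in the other lists. The 3 GGAC motifs were found in the first 50 bases of 13.5%, 14.2% and 15.1% of these genes in control, siRNA 1 and siRNA 2, against 14.5% of all starts in the table.

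Each list was then searched for joined peaks with no overlapping peak of any annotation in another list. Of the joined siRNA 1 peaks, 525 of 1425 (36.8%, 34.3% to 39.4%) overlapped no control peak, where 18.5% of all siRNA 1 peaks did so. For joined siRNA 2 peaks the count was 260 of 1142 (22.8%, 20.4% to 25.3%), where the share of all siRNA 2 peaks was 13.9%. In the opposite direction, 241 of 1075 joined control peaks (22.4%, 19.96% to 25.03%) overlapped no siRNA 1 peak, where the share of all control peaks was 32.9%. Likewise 223 (20.7%, 18.4% to 23.3%) overlapped no siRNA 2 peak, where it was 26.6%. Joined peaks were thus absent from control more often than all peaks of the siRNA lists, and absent from the siRNA lists less often than all control peaks, in these 4 shares. Between the siRNA lists, 27.3% of joined siRNA 1 peaks overlapped no siRNA 2 peak against 16.4% of all siRNA 1 peaks, and 12.2% of joined siRNA 2 peaks overlapped no siRNA 1 peak against 19.5% of all siRNA 2 peaks. Each list held joined peaks that overlapped no peak of either other list, and their regions are counted below.

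Other peak classes placed these shares. Of peaks of 5′ UTR alone, 51.9% under siRNA 1 and 40.3% under siRNA 2 overlapped no control peak, and 49.6% and 40.1% of those in control overlapped no siRNA 1 or siRNA 2 peak. Peaks of coding sequence alone overlapped no control peak in 15.2% of siRNA 1 and 12.6% of siRNA 2 peaks, and no siRNA 1 or siRNA 2 peak in 24.9% and 21.8% of control peaks. Joined siRNA peaks lay between these classes. Peaks of 5′ UTR alone were often unshared in both directions, and coding-only peaks were unshared more often in control than in the siRNA lists.

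Peak strength went with sharing, and the contrast was examined within 4 bands of score percentile. Up to percentile 25, 51.2% of joined siRNA 1 peaks overlapped no control peak against 27.4% of all siRNA 1 peaks of that band. Above percentile 75 the shares were 14.5% and 6.10%. For siRNA 2 against control the lowest band gave 40.2% against 26.4% and the highest 5.95% against 3.04%. In the other direction, 69.1% of joined control peaks of the lowest band overlapped no siRNA 1 peak against 80.8% of all control peaks there, and 1.27% against 1.89% in the highest. Against siRNA 2 the control shares were 59.7% against 64.1% in the lowest band, 24.6% against 25.6% in the second, 8.22% against 12.4% in the third and 4.66% against 4.43% in the highest. The excess over all peaks was thus seen in each of the 4 bands of the siRNA 1 list. Of joined control peaks above percentile 75, few lacked an siRNA 1 peak.

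**Figure D3:**
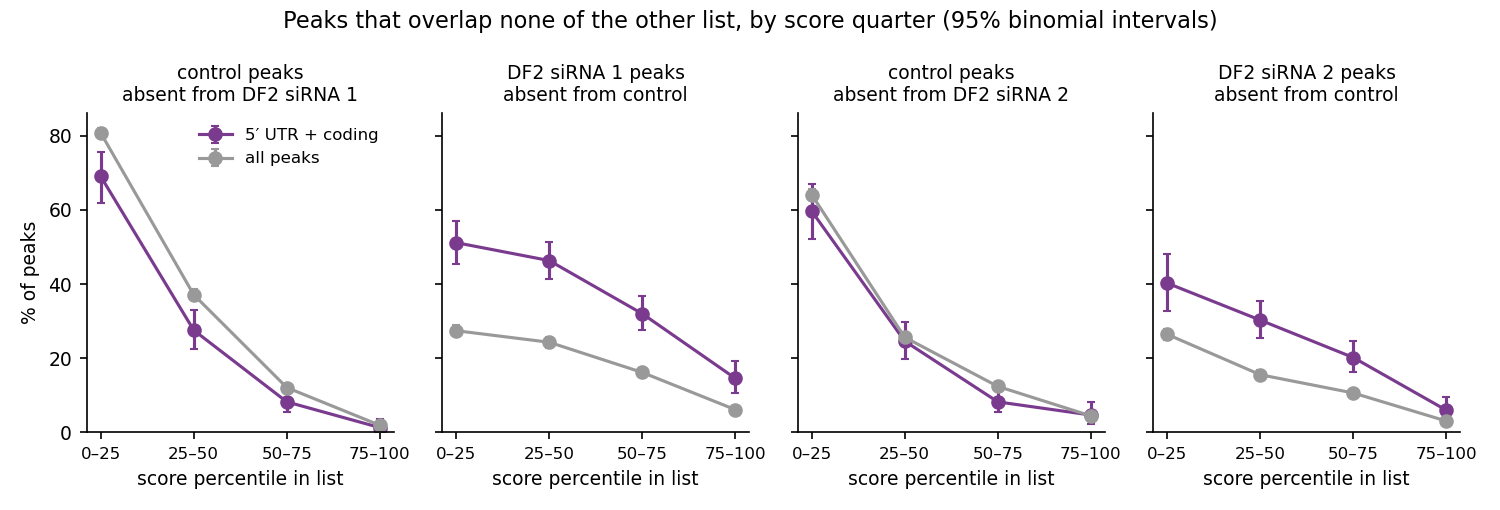
Percent of peaks that overlap no peak of the other list (vertical axis) by band of score percentile within the list (horizontal axis), for joined peaks (purple, 95% binomial intervals) and all peaks (grey), in 4 pairings of a list with another. In the siRNA 1 list joined peaks run from 51.2% down to 14.5%, above all peaks in each of the 4 bands.

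Peaks that overlap across lists were grouped into 17771 regions, of which 1950 held at least 1 joined peak. A peak stood there in all 3 lists in 1026 regions (52.6%, against 50.8% of all regions). It stood in the pair of siRNA lists without a control peak in 221 regions (11.3%, against 5.25%), in siRNA 1 alone in 322 (16.5%, against 7.996%) and in siRNA 2 alone in 70 (3.59%, against 4.87%). Control alone held 165 regions (8.46%, against 19.1%). Control shared 71 regions with siRNA 1 alone (3.64%, against 3.46%) and 75 with siRNA 2 alone (3.85%, against 8.52%). Against regions of all kinds, those with a joined peak had a smaller share in control alone and a larger share in siRNA 1 alone and in the siRNA lists together. The larger shares were not particular to joined peaks. Regions with a 5′ UTR-only peak stood in the siRNA lists together in 12.1% and in siRNA 1 alone in 17.2%, though 18.7% of them stood in control alone. With the 3 lists cut to equal length by score, regions with a joined peak in control alone numbered 102 (5.43%), against 11.4% of all regions.

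**Figure D4:**
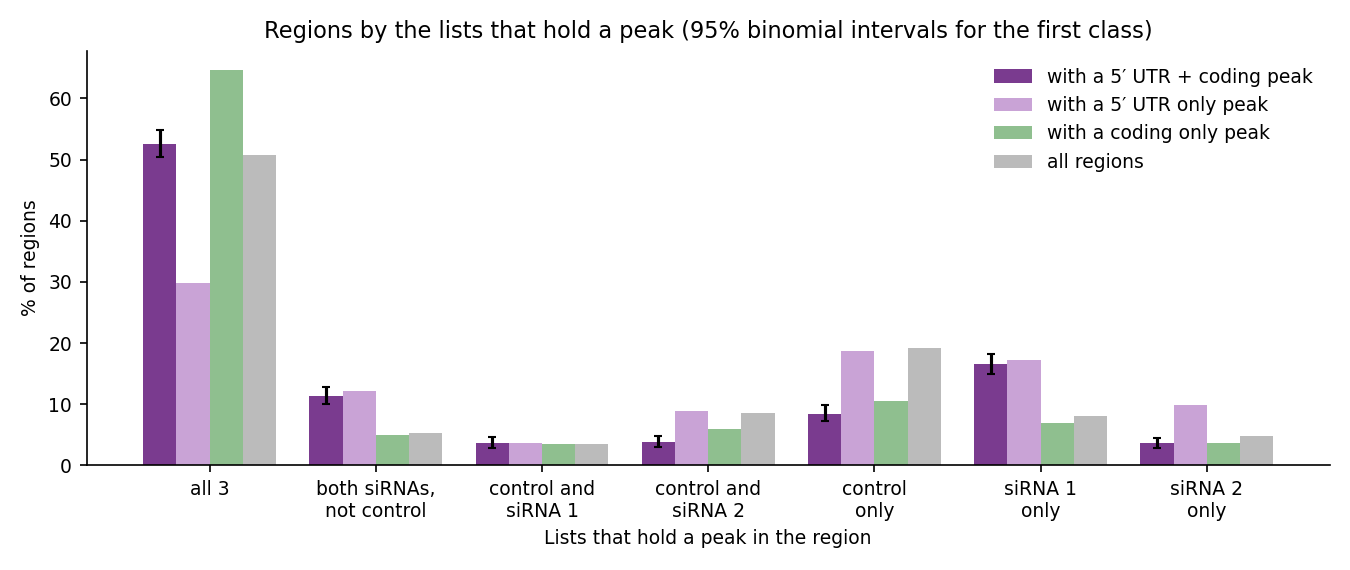
Percent of regions (vertical axis) by the lists that hold a peak there (horizontal axis), for regions with a joined peak (dark purple, 95% binomial intervals), with a 5′ UTR-only peak, with a coding-only peak and for all regions. Regions shared by the siRNA lists alone are 11.3% of those with a joined peak and 5.25% of all.

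By gene, 579 of the 1930 genes with a joined peak in any list (30.0%) had 1 in all 3 lists. A further 261 had it in both siRNA lists but lacked it in control, 467 in siRNA 1 alone, 268 in control alone and 153 in siRNA 2 alone. Another 88 had it in control and siRNA 1 and 114 in control and siRNA 2. As shares of the 1930 genes, the groups with the siRNA lists alone came to 13.5% for both, 24.2% for siRNA 1 and 7.93% for siRNA 2, and control alone to 13.9%. The same shares for coding-only peaks over 1456 genes were 14.1%, 18.7%, 8.24% and 11.3%, and for 5′ UTR-only peaks over 1797 genes 10.9%, 19.6%, 13.4% and 22.5%. The presence of any peak in the 10776 genes gave 3.54%, 5.03%, 2.84% and 11.99%, with 65.4% in all 3 lists, 3.62% in control and siRNA 1 and 7.57% in control and siRNA 2. The shares for joined peaks thus lay nearer to those of the coding-only and 5′ UTR-only classes than to those of any peak in both siRNA lists and in siRNA 1 alone. Most of these genes carried other peaks as well. Another peak was present in 70.3% of the control genes, 63.7% of the siRNA 1 genes and 67.2% of the siRNA 2 genes, and a peak at the stop codon or 3′ UTR in 61.6%, 54.6% and 56.1%.

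The genes HIF1A, MAP2K1, LOX and HSPB8 were taken as markers of this class of peak with earlier results of these data known. They are therefore not an independent set. None of the 4 had any peak in the control list. The data placed LOX and HSPB8 in the class in both siRNA lists, HIF1A in the siRNA 1 list alone and MAP2K1 in neither.

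HIF1A encodes the oxygen-regulated subunit of hypoxia-inducible factor 1. With siRNA 1 its peak (chr14:61695513-61697694, plus strand) covered 400 bases in 2 blocks, 1 from the transcript start to 326 bases after it and 1 in a downstream exon, at percentile 71.4 of the list, with a fold enrichment of 18.4 and a −log10 FDR of 4.39. With siRNA 2 the peak began at the same base but stopped after 200 bases (chr14:61695513-61695712), and was annotated as 5′ UTR alone, at percentile 67.7 with a fold of 10.5 and a −log10 FDR of 1.38. Both peaks begin on the adenosine printed above and span the GGACA at base 27 of the transcript.

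LOX encodes lysyl oxidase, an enzyme that crosslinks collagen and elastin. The same 400 bases were called in both siRNA lists (chr5:122077886-122078285, minus strand), from 26 bases before the RefSeq start to 373 bases after it. The percentile was 51.4 with siRNA 1 and 27.4 with siRNA 2, the fold enrichment 17.4 and 18.7, and the −log10 FDR 5.47 and 6.36. The siRNA 1 list also held a LOX peak of coding sequence and stop codon (chr5:122077155-122077685) at percentile 39.7.

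HSPB8 encodes a small heat shock protein that works with BAG3 in chaperone-assisted autophagy. Its peak began 89 bases before the RefSeq start in both siRNA lists and covered 800 bases with siRNA 1 (chr12:119178842-119179641, plus strand) and 600 with siRNA 2 (chr12:119178842-119179441). The percentile was 59.0 and 44.2, the fold enrichment 17.5 and 10.5 and the −log10 FDR 4.97 and 1.62. The siRNA 2 peaks of HIF1A and HSPB8 do not pass an FDR of 0.01.

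MAP2K1, the kinase MEK1 of the MAPK pathway, had the same 400-base peak in both siRNA lists (chr15:66386817-66387216, plus strand), annotated as 5′ UTR alone. It stood at percentile 46.2 with siRNA 1 and 45.4 with siRNA 2, with folds of 13.9 and 10.9. It was therefore no member of the class by the authors' annotation.

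**Figure D5:**
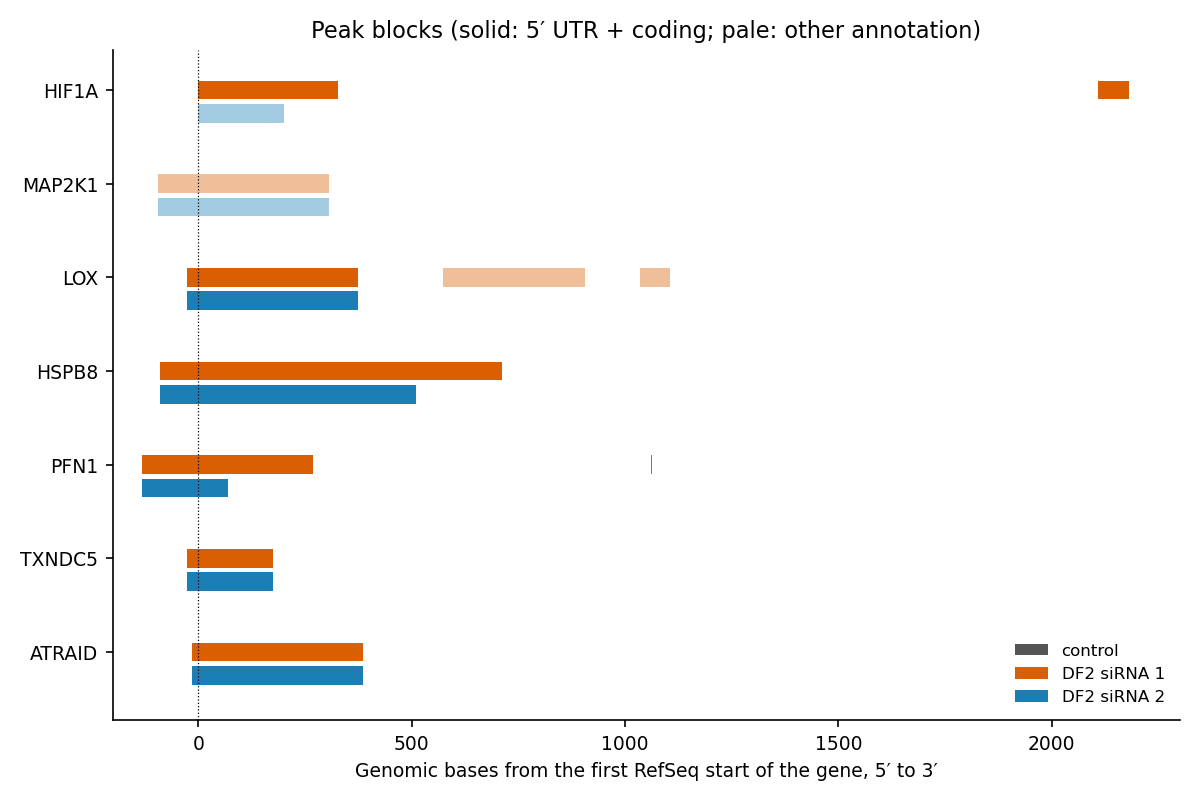
Blocks of the peaks of 7 genes by distance from the first RefSeq start in genomic bases (horizontal axis), 1 row per list that holds a peak, with joined peaks solid and other annotations pale. No control row is present for these genes, and LOX, TXNDC5 and ATRAID have the same joined peak in both siRNA lists. The second PFN1 block with siRNA 1 spans a single base, 1061 bases after the start, and is too narrow to see.

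A region was a joined peak in all 3 lists in 581 cases. In 515 of these each list held exactly 1 peak, and the blocks were identical in all 3 lists in 233 (45.2%). The 5′ end was identical in 72.4% and the 3′ end in 60.8%. Against control, the siRNA 1 peak was narrower in 21.4% of them and wider in 21.0%, and for the 311 such regions of 5′ UTR-only peaks these shares were 21.9% and 19.9%. Over the 7700 regions of every annotation with 1 peak a list it was narrower in 44.7% and wider in 15.1%. Those regions need not keep the same annotation in each list. Where it was kept, coding-only peaks were narrower in 37.0% and wider in 17.1%. Peaks from the 5′ UTR to the stop codon or 3′ UTR were narrower in 39.6% and wider in 11.1%. In the joined regions the siRNA 2 peak was narrower in 17.9% and wider in 19.8%, against 14.8% and 19.0% for 5′ UTR-only peaks. For coding-only peaks these shares were 29.6% and 18.75%, and over every annotation 34.5% and 16.7%. The joined peaks of these regions had the same extent more often at the 5′ end than at the 3′ end.

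The 12 regions with the highest mean percentile among those joined in all 3 lists stood above percentile 95 in each list. YBX1, which encodes an RNA- and DNA-binding cold shock domain protein, had a single 200-base peak (chr1:42682427-42682626, plus strand) in each list, at percentile 99.1 in control, 99.9 with siRNA 1 and 99.9 with siRNA 2. It began 9 bases after the RefSeq start and holds the GGACC shown above. WNK1, a kinase that controls ion transport, stood at percentiles 99.3, 99.5 and 99.7, and its siRNA 1 peak started 400 bases further 5′ than the other 2. BMP6, a secreted bone morphogenetic protein, had the same 400 bases in each list (chr6:7726797-7727196, plus strand), at percentiles 99.1, 99.7 and 99.6 and with folds of 89.7, 314.5 and 196.1 within the respective lists. IRS2, an adaptor of the insulin receptor, had 1600 unbroken bases in each list (chr13:109784969-109786568, minus strand), at percentiles 97.3, 98.4 and 98.7.

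HNRNPA0, a nuclear RNA-binding protein, had 800 bases from 13 bases before its start (chr5:137753577-137754376, minus strand) at percentiles 97.9, 98.1 and 99.3. PCBP1, a poly(C)-binding protein, had peaks from 23 bases before its start (chr2:70087454-70087853 in control and with siRNA 2, 200 bases longer with siRNA 1) at percentiles 95.6, 97.5 and 97.8. RARA, a retinoic acid receptor, stood at 95.2, 98.7 and 98.8, and its siRNA 2 peak had 6 blocks where the others had 3. TOB1, an antiproliferative protein that recruits the deadenylase complex, stood at 99.8, 99.5 and 98.97. BCAR3, FBXW2, THAP4 and ST3GAL2 completed the 12, and 7 of the 12 had the same ends and width in every list.

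Regions with a joined peak in both siRNA lists and no control peak numbered 150. For 63 of them the control list held no peak in the gene at all, and for the other 87 (58%) it held 1 elsewhere. The control list likewise held a peak in the gene for 58.4% of the regions of siRNA 1 alone. For the regions of siRNA 2 alone it did so in 71.4%. Their median percentile was 42.0 with siRNA 1 and 47.6 with siRNA 2, below the 62.0 and 64.4 of the regions joined in all 3 lists. An FDR under 0.01 was reached by 125 with siRNA 1 (83.3%) and 87 with siRNA 2 (58.0%). The peak covered the nearest RefSeq start in 64.7% of the 116 matched genes with siRNA 1 (55.2% to 73.3%) and 62.9% with siRNA 2 (53.5% to 71.7%), against 41.5% (37.0% to 46.1%) and 42.6% (38.1% to 47.2%) of the regions joined in all 3. They were also more often a single block, at 50% with siRNA 1 and 52.0% with siRNA 2 against 35.5% and 36.3%. Both traits were seen in regions of siRNA 1 alone too. There 50% were a single block (44.4% to 55.6%) and 58.0% covered the start (51.7% to 64.0%). In siRNA 2 alone the shares were 42.9% and 51.8%, and in control alone 30.9% and 46.2%.

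PFN1, which encodes the actin-binding protein profilin 1, had the highest mean percentile of the 150. Its siRNA 1 peak (chr17:4947469-4948661, minus strand, 400 bases) stood at percentile 91.5 and its siRNA 2 peak (chr17:4948462-4948661, 200 bases) at 94.1, with folds of 18.5 and 12.5, and both began 131 bases before the RefSeq start. With a −log10 FDR of 1.39, the siRNA 2 peak fails an FDR of 0.01. The second region lay in a gene the list calls RP11-977G19.10, with 3 blocks and percentiles of 91.6 and 89.2.

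Of the rest, 4 had no control peak in the gene. FKBP4, an immunophilin that works with HSP90, had the same 2 blocks in both lists (chr12:2794953-2795764, plus strand) at percentiles 83.0 and 87.6. TXNDC5, a disulfide isomerase of the endoplasmic reticulum, had the same 200 bases over its start in both lists (chr6:7910615-7910814, minus strand) at percentiles 88.5 and 79.9 and folds of 32.6 and 17.4. ATRAID, a gene induced by retinoic acid, had the same 400 bases over its start (chr2:27212027-27212426, plus strand) at 82.2 and 68.6. WRNIP1, a partner of the Werner helicase, stood at 74.5 and 78.6.

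The other 6 had a control peak elsewhere in the gene. They were DYNC2I2, a dynein-2 subunit of cilia (percentiles 78.6 and 81.8), NPR1, a natriuretic peptide receptor (75.2 and 84.5), WDR26 (85.9 and 72.4), PDXK, which makes the active form of vitamin B6 (73.1 and 83.5), CACUL1 (73.7 and 78.9), and TASOR, a subunit of the silencing complex HUSH (73.1 and 78.4). The TASOR peak (chr3:56673688-56683237, minus strand) begins at the adenosine shown above and includes the GGACC at base 33. In 9 of the 12 regions both siRNA lists gave the same ends and width. In 6 of the 9 genes with a matched start the peak covered it.

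Regions with a joined peak in control and no peak in either siRNA list numbered 165, and most were weak. Their median percentile was 19.7, the median fold 9.003, and 76 of them (46.1%) reached an FDR of 0.01. In 67 of the 165 neither siRNA list held a peak in the gene. The 12 with the highest percentile each had several blocks, up to 6, and 3 of the 12 passed an FDR of 0.01. Those 3 were MRPS33, a mitochondrial ribosomal protein (chr7:141009811-141015228, minus strand, 6 blocks, percentile 72.8, fold 13.95), HPS5, a trafficking protein of lysosome-related organelles (chr11:18287905-18295054, minus strand, percentile 64.3, fold 31.6), and ESF1, a nucleolar protein (chr20:13776016-13783048, minus strand, percentile 61.0, fold 19.0). The siRNA lists held no peak in any of these 3 genes.

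The highest control-only percentile belonged to DDX21, a nucleolar RNA helicase (chr10:68956655-68962143, plus strand, percentile 97.4), with a −log10 FDR of 1.70. STEAP4 followed at 86.3, CDH10 at 75.2, REXO4 at 62.2, MOSPD1 at 60.9, ZDHHC6 at 59.6, GANAB at 58.6, DTD1 at 58.1 and GON4L at 58.0. Their −log10 FDR lay between 1.34 and 2.00. No peak was called in either siRNA list anywhere in 8 of the 12 genes.

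The siRNA 1 list alone held 322 such regions, with a median percentile of 35.9 and a median fold of 9.04. Of these peaks 60.9% covered at most 200 bases (55.3% to 66.2%), against 8.26% of the siRNA 1 peaks of regions joined in all 3 lists. Narrow peaks were also common in the regions of other single lists. They made up 44.8% in control alone (37.1% to 52.8%) and 48.6% in siRNA 2 alone (36.4% to 60.8%). The 6 with the highest percentile passed an FDR of 0.01. SLC7A5, a large neutral amino acid transporter, stood at percentile 99.1 (chr16:87869089-87869488, minus strand, 400 bases from 19 bases after the start, fold 32.2). LY6K stood at 95.4, and CTSZ, a lysosomal cathepsin, at 93.5 with a 200-base peak. SDF4 stood at 91.9, CDKN1A, the cell cycle inhibitor p21, at 91.8 (chr6:36682720-36684485, plus strand, fold 23.5), and NDUFA1, a subunit of respiratory complex I, at 90.9. The other lists held no CDKN1A or NDUFA1 peak at all, but the NDUFA1 region has a peak on the opposite strand in both of them.

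The siRNA 2 list alone held 70 regions, with a median percentile of 21.7 and 28 of 70 under an FDR of 0.01. RPF1, a ribosome biogenesis factor, led at percentile 72.1, and others of high percentile were PFKP, a phosphofructokinase of glycolysis, at 54.5, WDR13 at 50.02, COMMD4 at 48.7 and RNF34 at 48.0. Of these named peaks WDR13 passed an FDR of 0.01, and each covered 200 or 400 bases.

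In other regions the same place carried a joined peak in some lists and another annotation in the rest, so that the peak ends decided the class. There were 114 regions joined in both siRNA lists with a control peak of another class. The control peak ran from the 5′ UTR to the stop codon or 3′ UTR in 45 of them, was limited to the 5′ UTR in 38 and to coding sequence in 24. The reverse held in 82 regions joined in control, where the siRNA 1 peak reached the stop codon or 3′ UTR in 33, was coding alone in 28 and 5′ UTR alone in 12. Of the joined siRNA 1 peaks, 47.9% overlapped a joined control peak and 15.3% a control peak of another annotation only. Of the joined control peaks, 63.3% overlapped a joined siRNA 1 peak and 14.2% an siRNA 1 peak of another annotation only. Other classes of siRNA 1 peaks met only another annotation in control in 7.72% (5′ UTR alone) and 29.7% (coding alone). For peaks from the 5′ UTR to the stop codon or 3′ UTR it was 15.6%. In the opposite direction the control shares for the same classes were 12.4%, 9.05% and 24.3%. Joined peaks lay within the range of these classes.

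Among the regions joined in both siRNA lists, ADAR, which encodes an RNA-editing adenosine deaminase, had 2200 bases reaching the stop codon or 3′ UTR in control (percentile 99.1) and 1600 and 1800 joined bases with the siRNAs (94.2 and 98.5). DEGS1, a ceramide-forming desaturase, had 2000 bases in control (99.6) and 800 in each siRNA list (95.9 and 92.5). LRP6, a Wnt co-receptor, TTI1 and RLIM, a ubiquitin ligase, likewise reached the stop codon or 3′ UTR in control. NAB2 had 600 coding bases in control (86.1) and 1200 and 1400 joined bases with the siRNAs (96.7 and 98.2). MMP15, a membrane-type metalloproteinase, had 600 bases of 5′ UTR in control (77.0) and 800 joined bases in each siRNA list (98.3 and 92.5), with 1 added 200-base step at the 3′ side. TRABD2A gained its 5′ UTR by a step of the same size on the 5′ side.

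In the opposite set, TUBB, a beta-tubulin, had 1000 joined bases in control (percentile 99.8) and 1200 bases reaching the stop codon or 3′ UTR in both siRNA lists (98.8 and 99.7), and its control peak had a −log10 FDR of 1.30. TMEM115 had 1200 joined bases in control and 2197 in each siRNA list. IRF2BP2, a transcriptional co-repressor, had 400 joined bases in control at percentile 68.0 and 2000 bases to the stop codon or 3′ UTR with the siRNAs at 99.3 and 99.7. CHSY1, a chondroitin synthase, PLCL2, TNFRSF21 and PRP4K had coding-only peaks with the siRNAs, and AFF4 a stop codon peak. TGFB1, named after its values were seen, had the highest fold of any joined siRNA 1 peak at 430.6. Its 600 bases of 5′ UTR in control and with siRNA 2 (chr19:41353312-41353911, minus strand) became 1200 joined bases with siRNA 1 by extension at the 3′ side.

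Genes of functional lists were then examined. Over all genes with a peak in any list, 1930 of 10776 (17.9%) had a joined peak in at least 1 list. In control 9.73% did so, with siRNA 1 12.9% and with siRNA 2 10.3%, so that siRNA 1 held the most such genes before any gene list is considered, and the counts by list below stand beside these shares. Among hypoxia genes 7 of 14 with a peak did so, 5 in control, 6 with siRNA 1 and 4 with siRNA 2. EGLN1, the oxygen sensor that marks HIF1A for decay, VHL, the ubiquitin ligase subunit that reads that mark, and VEGFA, an angiogenic factor, had joined peaks in all 3 lists. The VEGFA peak (chr6:43770184-43771183 in control and with siRNA 1, plus strand) stood at percentiles 72.0, 76.3 and 78.7, and that of EGLN1 at 82.8, 91.1 and 92.7. VHL had the same 400 bases in control and with siRNA 2 (chr3:10141608-10142007, plus strand) at percentiles 53.0 and 53.7, and 1000 bases with siRNA 1. SLC2A1, a glucose transporter, was joined in control and with siRNA 1, P4HA2, a collagen prolyl hydroxylase, in control and with siRNA 2, and BNIP3, a mitophagy receptor, with siRNA 1 alone. HIF1A differed from EGLN1, VHL and VEGFA in having no control peak.

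Of 21 heat shock and chaperone genes with a peak, 2 were joined in control, 6 with siRNA 1 and 3 with siRNA 2, where the shares of all genes were 9.73%, 12.9% and 10.3%. DNAJB1, an HSP40 co-chaperone, and STIP1, which links HSP70 to HSP90, were joined in all 3 lists, at percentiles 64.2 and 51.0 in control. HSPB1, a small heat shock protein, had 200 joined bases with siRNA 1 alone (chr7:76302544-76302743, plus strand, percentile 69.5). BAG3, the partner of HSPB8 (percentile 39.7), and HSPH1 (46.2) each had 400 joined bases with siRNA 1 alone. The BAG3 and HSPH1 peaks had −log10 FDR values of 1.68 and 1.41.

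Of 19 genes of extracellular matrix and collagen crosslinking with a peak, 5 were joined in any list. LAMC1, a laminin chain, had the same 600 bases in each list (chr1:183023460-183024059, plus strand) at percentiles 78.6, 83.0 and 81.8. COL12A1 was joined in all 3 lists, COL1A1 with siRNA 1 alone and LOXL2 in control alone. LOX was the only gene of this list joined in both siRNA lists but not in the control list.

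The MAPK and RAS list had 5 of 27 genes with a joined peak. MAP3K5, a stress-activated kinase, and MAPK3, the kinase ERK1, were joined in all 3 lists at low percentiles, 26.9 and 9.15 in control. SPRY2, an inhibitor of receptor signalling, stood at 92.6 in control and 88.0 with siRNA 2, and SHC1 and MAPKAPK2 were joined with siRNA 1 alone.

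Genes of the m6A system itself carried joined peaks in 6 of 23 cases. ALKBH5, an m6A demethylase, had the same 2 blocks in each list (chr17:18183078-18184650, plus strand) at percentiles 94.6, 97.4 and 97.8. RBM15B, an adaptor of the methyltransferase, had the same 400 bases in each list (chr3:51391268-51391667, plus strand) at 41.7, 52.1 and 57.7, and IGF2BP3, an m6A reader, stood at 70.7, 45.2 and 62.6. METTL3, the catalytic subunit, was joined in each list, but its control peak (chr14:21503864-21504063) lies apart from its siRNA peaks (chr14:21510833-21511375), at percentiles 12.04, 24.6 and 30.6. YTHDF3 was joined with siRNA 1 alone and YTHDC1 with siRNA 2 alone. YTHDF2, the gene targeted by the siRNAs, had no joined peak. Its control peak ran from the 5′ UTR to the 3′ UTR over 2000 bases (percentile 99.1), and both siRNA lists held 1600 bases of coding sequence, stop codon and 3′ UTR (84.3 and 66.6). A peak list holds no transcript level, so the knockdown was not checked here.

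Ubiquitin conjugation genes had joined peaks in 10 of 28 cases, 3 in control, 9 with siRNA 1 and 2 with siRNA 2, beside the 9.73%, 12.9% and 10.3% of all genes. These counts are small and have no test. UBE2R2 alone was joined in all 3 lists (chr9:33817567-33886912, plus strand, 2 blocks) at percentiles 85.2, 97.0 and 96.8. CUL1, the scaffold of SCF ubiquitin ligases, was joined in both siRNA lists at 61.5 and 73.1. UBE2C, UBE2D3, UBE2H, UBE2Q1, UBE2S and UBE2Z were joined with siRNA 1 alone, at percentiles from 40.9 for UBE2Q1 to 81.0 for UBE2D3, UBE2N in control alone, and UBE2V1 in control and with siRNA 1. Of these 6 siRNA 1 peaks, those of UBE2C, UBE2D3, UBE2S and UBE2Z covered 200 bases.

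Chromatin genes had joined peaks in 14 of 46 cases, 11 in control and 12 in each siRNA list, and 9 of the 14 were joined in all 3. ARID1A, a subunit of SWI/SNF remodelers, had the same 1800 bases in each list (chr1:26693436-26727816, plus strand) at percentiles 64.2, 78.4 and 80.4. ARID2 stood at 89.7, 77.2 and 82.7, CHD4 of the NuRD complex at 74.8, 88.7 and 84.0, and KDM2A, a histone demethylase, at 73.7, 74.5 and 72.5.

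The cyclin and CDK list had 6 of 21 genes with a joined peak. CDK12 and CDK13, transcription-elongation kinases, had wide peaks in all 3 lists, with CDK13 covering 2400 bases in each (chr7:39950037-39988182, plus strand) at percentiles 92.6, 92.7 and 90.2. CDK6 was joined in all 3 at 57.7, 68.4 and 61.4, CCND3 in both siRNA lists at 28.0 and 46.2, and CCNT1 in control alone. In the TGF-beta and BMP list 7 of 26 genes had a joined peak, with SMAD7, an inhibitory SMAD (chr18:48949234-48950711, minus strand; percentiles 75.2, 77.0 and 85.1), the receptor BMPR2 and the ligand TGFB2 joined in all 3 lists. The immediate-early list had 7 of 32. DUSP1, a MAPK phosphatase, had the same 600 bases in each list (chr5:172770596-172771195, minus strand) at 83.0, 85.9 and 82.3, and FOSB, an AP-1 subunit, the same 800 bases at 29.7, 92.4 and 78.1. FOSL1, FOSL2 and DUSP4 were joined in all 3, and IER3 and JUND with siRNA 1 alone.

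Translation factors had 5 of 22, with EIF5B, which joins the ribosomal subunits, in all 3 lists at percentiles 94.1, 84.8 and 82.0 and EIF3J in both siRNA lists at 50.5 and 47.6. The integrated stress list had 4 of 19 and none in all 3, with PPP1R15A, the stress-induced phosphatase subunit GADD34, in control and with siRNA 2 at 69.6 and 78.2. Ribosomal protein genes had 1 of 23, RPL36A, with the same 200 bases in each list (chrX:101390824-101391023, plus strand). The RAB and ARF list had 2 of 18, ARF4 and RAB21, neither in control. Of 24 autophagy and lysosome genes, SQSTM1, an autophagy receptor, and TFEB, a regulator of lysosome genes, had joined peaks in both siRNA lists but none in control, at percentiles of 34.5 and 47.3 for SQSTM1 and 0.799 and 5.44 for TFEB.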

How the data were processed

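Each of the 3 conditions, read from the labelled treatment, has an input library and an m6A-IP library, 6 in all. HISAT2 and the hg38 build are named in the submitters' processing notes; no peak caller is named in the sources used here. Per the file headers, the authors gave each peak a score, a fold enrichment (a ratio) and a −log10 FDR. Each list is marked as merged over r1 and r2. Every deposited peak had an FDR under 0.05. Depth was not used here.

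Block sizes were reversed on the minus strand, and touching blocks were joined. A peak was shared when it met another on its own strand by 1 base or more, and overlapping peaks of different lists formed regions. Scores were turned into percentiles within a list. Of 10786 symbols, 8843 were current in the RefSeq table (GRCh38.p14), 659 were updated and 1284 kept. Each peak was set against the RefSeq start of its gene nearest its 5′ end. Python 3.11.15, pandas 2.3.3, scipy 1.17.1 and networkx 3.6.1 were used. Region building was tested on simulated data and returned 2000 of 2000 planted regions.

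The members, the gene lists and the rule for named genes were chosen with earlier results of these data known. Named regions are the 4 marker genes, the 12 of highest mean percentile joined in all 3 lists, in both siRNA lists without a control peak, and in control alone, 6 in each siRNA list alone, 8 for each direction of a change of class, up to 4 genes a gene list and the 5 control peaks with most blocks; other genes of the gene lists were named after their values were seen. Some named items and 1 gene list are not reported here. Alternatives were an FDR under 0.01, the top 50% by score, equal list lengths, 50% overlap, gaps of 100 bases, strand ignored, 1 peak width, 1 motif, symbols as deposited, peaks with a further non-coding annotation and peaks that cover the start, and, chosen after seeing the data, weighting to the widths of the control list.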

Additional observations from a re-analysis of the deposited data

How the results depend on the processing

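Of 140 alternative values for the main results, 102 stayed within the 95% interval of the reported share or within 1.5 times the reported count. Some contrasts with all peaks changed direction. In the top 50% by score, 15.7% of joined siRNA 2 peaks overlapped no siRNA 1 peak, against 13.9% of all siRNA 2 peaks. Of regions with a joined peak, 4.97% stood in siRNA 2 alone there, against 3.34% of all regions. Regions in all 3 lists were 51.2% against 51.8% under an FDR of 0.01 and 54.1% against 59.5% in the top 50%. With equal list lengths they were 53.8% against 55.3%. The other 38 values follow, and the cause was not tested except where the setting itself keeps fewer peaks. Keeping the top 50% by score gave joined shares of 7.72% in control and 9.46% with siRNA 2; the 13147 top control peaks gave 7.48%. At a covered width of exactly 600 bases the shares were 8.13% in control and 9.13% with siRNA 1. Where the overlap had to reach 50% of both peaks, joined control peaks were found with siRNA 1 in 69.0% and with siRNA 2 in 72.8%, siRNA 1 peaks in control in 55.1% and with siRNA 2 in 68.4%, and siRNA 2 peaks in control in 69.6% and with siRNA 1 in 81.6%. With equal list lengths control peaks were found with siRNA 1 in 83.3% and with siRNA 2 in 84.2%. In the top 50%, siRNA 1 peaks were found in control in 69.3% and with siRNA 2 in 78.5%, and siRNA 2 peaks with siRNA 1 in 84.3%. Regions in the top 50% numbered 533 in all 3 lists, 103 in both siRNA lists, 31 in control and siRNA 1, 95 in control alone and 121 in siRNA 1 alone; control alone held 102 with equal list lengths, and siRNA 2 alone 112 with 50% overlap. With 50% overlap the counterpart was joined too in 86.3% (control in siRNA 1), 86.7% (control in siRNA 2), 81.5% (siRNA 1 in control), 85.8% (siRNA 2 in control) and 88.8% (siRNA 2 in siRNA 1). Joined peaks of at most 400 bases made up 32.2%, 49.3% and 38.6% (control, siRNA 1, siRNA 2) under an FDR of 0.01, and 51.1%, 66.4% and 53.6% where the peak covered the start, where 38.6% of siRNA 1 peaks were a single block. GGACT alone was found in 5.88%, 5.93% and 6.73%. Of the 67 named regions, the same number of lists held a peak in 62 with 50% overlap, 49 under an FDR of 0.01, 63 in the top 50%, 67 with equal list lengths and 66 with strand ignored. No paired analysis was possible because each condition has 1 merged list. Library depth is unknown, so what depth limits was not tested.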
